A study of Arabidopsis thaliana with 72 samples.

Results

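The growth-regulating factors GRF1 (AT2G22840), GRF2 (AT4G37740), GRF3 (AT2G36400), GRF4 (AT3G52910), GRF5 (AT3G13960), GRF7 (AT5G53660), GRF8 (AT4G24150) and GRF9 (AT2G45480) and the coactivator AN3 (AT5G28640, also called GIF1) were followed by RNA-seq through Arabidopsis thaliana hybrids and the lines bred from them. These 9 genes were taken by their identifiers from the 37336 genes of the table of counts. Rosette leaves were collected at 25 days after sowing (DAS), and 72 libraries of 24 groups were sequenced, with 3 libraries per group. The Ws/Ler system held the Hybrid Mimics WL_HM1 to WL_HM7, which are F7 lines selected over the generations for the large rosettes of the F1, the small lines wl_sml1 and wl_sml2, which are F7 lines selected for small rosettes, the reciprocal F1 hybrids WsxLer and LerxWs, and the parents Ws and Ler. The Col/Ler system held the Hybrid Mimics CL_HM1 to CL_HM6, the small lines cl_sml1 and cl_sml2, the F1 hybrids ColxLer and LerxCol, and the parents Col and Ler, whose Ler libraries are those of the first system. The plants carried no transgene or treatment, and all were grown on plates and then in soil in the same long-day conditions. Leaves of 1 plant went into each library of an F7 line, whereas each library of a parent or an F1 hybrid pooled leaves of 3 plants. CL_HM5 and CL_HM6, which the study set aside for an unsatisfactory plant size at sampling, were left out of the Hybrid Mimic group here and are described on their own.

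GRF proteins are plant transcription factors that carry a QLQ domain and a zinc-binding WRC domain, and they are best known for sustaining cell proliferation in young leaves. Through the QLQ domain they bind GIF coactivators such as AN3, which bring in SWI/SNF chromatin remodelling complexes and which are needed for the normal number of cells in a leaf. The small RNA miR396 pairs with the transcripts of most GRF genes and lowers them as a leaf matures, so that in young organs the GRF transcripts are concentrated where cells still divide.

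The miR396 site is what most of these genes share in sequence, and it separates them from GRF5 and AN3. The mature 5p strands of the MIR396A locus (chr2:4142443-4142463, minus strand) and the MIR396B locus (chr5:13611808-13611828, plus strand) in RefSeq's annotation of TAIR10.1 are shown with the seed, bases 2 to 8, in capitals, and they differ from each other in the last base.
MIR396A 5p: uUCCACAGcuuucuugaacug
MIR396B 5p: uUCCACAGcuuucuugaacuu
The best match in each spliced transcript is shown next, with capitals for the bases that pair with the MIR396A 5p strand, G:U pairs included, and lower case for bases that do not pair or bulge out.
GRF1 (chr2:9729944-9729965, plus strand) and GRF2 (chr4:17726404-17726425, minus strand): UcGUUCAAGAAAGcCUGUGGAA
GRF3 (chr2:15271745-15271766, minus strand) and GRF4 (chr3:19617293-19617314, minus strand): CcGUUCAAGAAAGcCUGUGGAA
GRF7 (chr5:21795145-21795166, plus strand) and GRF8 (chr4:12538649-12538670, plus strand): UcGUUCAAGAAAGCaUGUGGAA
GRF9 (chr2:18746292-18746313, plus strand): acGUUCAAGAAAGCuUGUGGAA
Each of these matches is 22 bases long and lies in a coding exon, the third of 4 exons in GRF1, GRF2, GRF3 and GRF4, the second of 3 in GRF7 and GRF9 and the fifth of 6 in GRF8. The match was scored by adding 0.5 for a G:U pair, 1 for a mismatch and 1 for a bulged base, with at most 1 bulged base allowed. The scores were 2.0 in GRF3 and GRF4, 2.5 in GRF1, GRF2, GRF7 and GRF8, and 3.0 in GRF9. Of 27438 protein-coding genes searched, 15 reached a score of 3.0 or less. The best match in GRF5 and in AN3 scored 6.5, which 12771 genes reached, and no site is printed for them. A match is a description of the sequence. The MIR396 loci are not analysed here for expression, so no level of the small RNA stands beside the levels of its targets.

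The transcripts of GRF1 to GRF4 made up nearly all of the GRF counts in these leaves. Per kilobase of exon, the mean normalized count over all 72 libraries was 139 for GRF1, 78.4 for GRF3, 44.5 for GRF4, 41.1 for GRF2 and 19.7 for AN3. On the same scale the mean was 3.41 for GRF9, 3.11 for GRF5, 2.34 for GRF7 and 1.98 for GRF8. Normalized counts are counts scaled with TMM factors to the mean library size, and 1 count corresponded to 0.766 to 1.25 normalized counts. GRF5, which promotes cell proliferation in leaf primordia, had a median of 2 counts and was at 0 in 19 of 72 libraries, where a count of 0 allows up to 3 counts. GRF9 had a median of 5 counts, GRF7 a median of 3 and GRF8 a median of 2. GRF7 and GRF8 stayed at or under 24 and 32 counts in all 72 libraries. A gene entered a test where any library of the fit reached 50 counts. GRF1 to GRF4 and AN3 passed this limit in both systems, and GRF7 and GRF8 passed it nowhere. GRF5 and GRF9 passed it in the Ws/Ler system only, GRF5 through WL_HM6 replicate 2 (94 counts) and LerxWs F1 replicate 2 (52 counts) and GRF9 through WL_HM6 replicate 2 alone (52 counts). They count among the 7 members tested there, but a gene that enters in this way had to differ, and no fold change is read for them.

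The totals of the libraries lay between 17741358 and 28527725 counts (median 20432113). The mature leaf genes RBCS1A, CAB3 and RCA had at least 28406 counts in every library. Of the shoot meristem markers, CLV3 was at 0 in 63 and WUS in 69 of 72 libraries. The libraries WL_HM6 replicate 2 and LerxWs F1 replicate 2 had summed shoot meristem markers (STM, KNAT1, CUC1, CUC2, CLV3 and WUS) of 371 and 292 normalized counts and stood apart, since the next highest library had 98.8. The comparisons that use them were also run without both, which left 5 members to test. In bulk leaves, fewer cells of a type and less RNA per cell cannot be told apart. The strand setting of the counting was not given in the sources used here, and GRF1, GRF3, GRF7 and GRF9 overlap genes on the opposite strand by 23, 227, 244 and 126 bases, from which their reads cannot be told apart. GRF3 overlaps another such gene by 5 bases. The labels do not say that the libraries of a line came from separate growth experiments, so p-values measure only the spread between these samples.

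Hybrid Mimics were set against small lines to ask how the regulators differed between large and small plants bred from the same cross. The paper reports that flowering times also diverged during selection. Small plants flowered at about the time of the early parent or slightly before it, and large plants close to the later parent. All leaves were taken at the same age, so plant size and developmental stage cannot be told apart in this contrast. Their separate parts were not tested. GRF4 had the largest log2 fold change of the members called. It was higher in the Hybrid Mimics of both systems, and so was GRF2. GRF3 was higher in the Ws/Ler system, and AN3 in the Col/Ler system. GRF1, the most abundant member, was lower in the Col/Ler Hybrid Mimics. In the Ws/Ler system 3 of the 7 members tested passed the limit of 0.05 for the adjusted p and so were called, all of them higher, against 71.0% of all genes tested (33.9% higher and 37.2% lower). In the Col/Ler system 4 of 5 were called, 3 higher and 1 lower, again against 71.0% of all genes (35.0% higher and 36.0% lower). DESeq2 called 6 of the 7 in the Ws/Ler system, adding AN3 (1.03, adjusted p = 0.0488), GRF5 and GRF9. It called the same 4 in the Col/Ler system. The 71.0% is the share of edgeR, and that of DESeq2 is not given here. GRF5 and GRF9 entered through the libraries rich in meristem markers, so their calls are not read. So few genes allow no more to be read from these counts. All 7 calls of edgeR held when any library of the fit's Hybrid Mimics or small lines was left out, and the 3 calls of the Ws/Ler system held without both libraries rich in meristem markers. The median log2 fold change of the 5 members tested in both systems was 0.91 in the Ws/Ler and 1.25 in the Col/Ler system, against -0.03 and -0.01 for all genes.

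GRF4 ran from 20.102 to 239 normalized counts, with a median of 114, in the 21 Ws/Ler Hybrid Mimic libraries, against 14.4 to 46.6, with a median of 30.1, in the 6 libraries of small lines. Only WL_HM3 replicate 3, at 20.102, lay below the highest library of the small lines. The log2 fold change was 1.86 ± 0.24 (SE; edgeR's quasi-likelihood test, adjusted p = 1.16e-07). Among Col/Ler plants GRF4 ran from 16.4 to 101, with a median of 59.7, in the 12 Hybrid Mimic libraries, against 6.63 to 21.7, with a median of 9.03, in the small lines. Here CL_HM4 replicate 3 was the only Hybrid Mimic library within the range of the small lines. The log2 fold change was 2.35 ± 0.22 (edgeR, adjusted p = 1.82e-09).

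GRF2, which acts together with GRF1 and GRF3 in leaf growth, ran from 36.2 to 196 normalized counts (median 104) in the Ws/Ler Hybrid Mimics, against 38.9 to 67.7 (median 54.0) in the small lines. Its log2 fold change was 0.91 ± 0.17 (edgeR, adjusted p = 2.03e-05), and 3 of 21 Hybrid Mimic libraries lay below the highest library of the small lines. Among Col/Ler plants it ran from 53.2 to 139.6 (median 95.3) in the Hybrid Mimics, against 32.2 to 47.5 (median 38.1) in the small lines. The groups did not overlap, and the log2 fold change was 1.25 ± 0.14 (edgeR, adjusted p = 2.75e-08).

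GRF3 behaved differently in the 2 systems. It ran from 70.4 to 320.4 normalized counts (median 195) in the Ws/Ler Hybrid Mimics, against 60.0 to 125 (median 108) in the small lines. The libraries of the small lines overlapped only with the 3 libraries of WL_HM3. The log2 fold change was 0.88 ± 0.12 (edgeR, adjusted p = 1.61e-07). Among the Col/Ler libraries GRF3 ran from 71.1 to 207 (median 143) in the Hybrid Mimics, against 115 to 152 (median 129) in the small lines. The small lines lay inside the range of the Hybrid Mimics, and the log2 fold change was 0.01 ± 0.13 (edgeR, adjusted p = 0.957). It was -0.22 (adjusted p = 0.105) when CL_HM5 and CL_HM6 were counted among the Hybrid Mimics.

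GRF1 ran from 249.9 to 580.4 normalized counts (median 339.8) in the Ws/Ler Hybrid Mimics, against 282 to 379 (median 352) in the small lines. The groups overlapped almost wholly, and the log2 fold change was -0.02 ± 0.08 (edgeR, adjusted p = 0.808). Among the Col/Ler libraries GRF1 ran from 169.7 to 280.3 (median 212) in the Hybrid Mimics, against 245 to 314 (median 291) in the small lines. Here 3 of 12 Hybrid Mimic libraries lay above the lowest library of the small lines. GRF1 fell by 0.41 ± 0.09 on the log2 scale (edgeR, adjusted p = 0.000324).

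AN3 ran from 7.45 to 441 normalized counts (median 30.0) in the Ws/Ler Hybrid Mimics, against 11.8 to 26.5 (median 22.2) in the small lines, a log2 fold change of 1.0 ± 0.56 (edgeR, adjusted p = 0.109). The range of the Hybrid Mimics spanned that of the small lines on either side. Without the 2 libraries rich in meristem markers the log2 fold change was 0.65 (adjusted p = 0.151). Col/Ler libraries of AN3 ran from 9.21 to 74.3 (median 27.3) in the Hybrid Mimics, against 5.48 to 18.9 (median 10.9) in the small lines, and the log2 fold change was 1.31 ± 0.35 (edgeR, adjusted p = 0.00182). The low libraries of the Hybrid Mimics overlapped with the small lines. GRF5 ran from 0 to 94 counts (median 2) in the Ws/Ler Hybrid Mimics, against 0 to 2 (median 0.5) in the small lines, and the next highest Hybrid Mimic library after WL_HM6 replicate 2 had 33. It ran from 0 to 16 (median 1.5) in the Col/Ler Hybrid Mimics, against 0 to 1 in the small lines, where 5 of 6 libraries were at 0. GRF9 ran from 1 to 52 counts (median 5) in the Ws/Ler Hybrid Mimics, against 0 to 7 (median 3) in the small lines. The groups overlapped for both genes. Without both libraries rich in meristem markers neither gene reached 50 counts, and neither was tested.

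**Figure D1:**
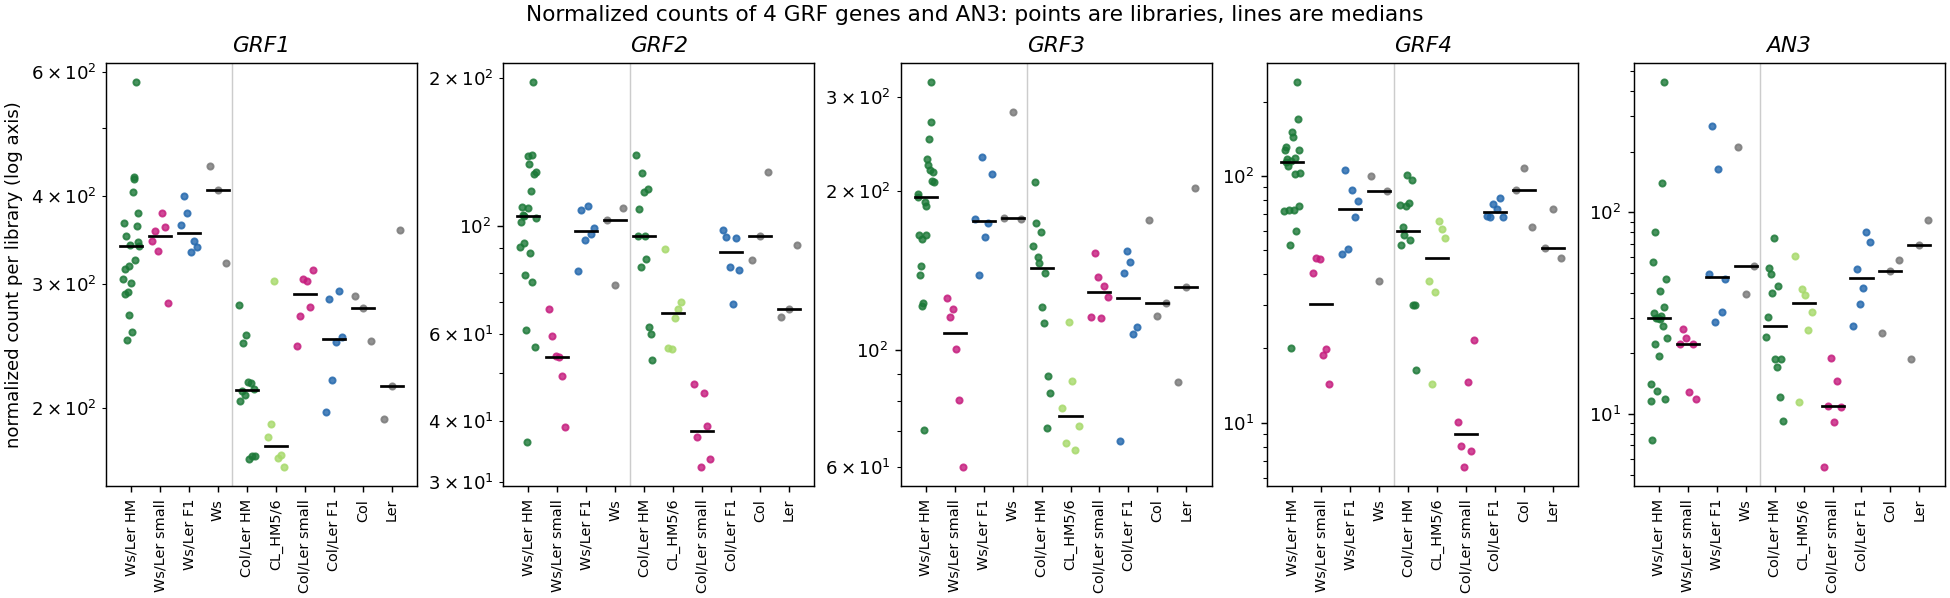
Normalized counts of GRF1, GRF2, GRF3, GRF4 and AN3 on log axes, with a point for each of the 72 libraries and a line at the median of each group, for both systems and the parents. GRF4 has medians of 114 in the Ws/Ler Hybrid Mimics and 30.1 in the Ws/Ler small lines, and of 59.7 in the Col/Ler Hybrid Mimics and 9.03 in the Col/Ler small lines. GRF1 runs from 165 to 580 over the 72 libraries.

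The difference between the systems was tested in a fit of all 72 libraries. For GRF3 the log2 fold change of Hybrid Mimics over small lines was larger in the Ws/Ler than in the Col/Ler system by 0.90 ± 0.20 (edgeR, adjusted p = 0.000221), and for GRF1 by 0.42 ± 0.15 (adjusted p = 0.0216). These were 2 of the 7 members tested, and 40.3% of all genes passed the same test. GRF2 (-0.31, adjusted p = 0.254), GRF4 (-0.45, adjusted p = 0.314) and AN3 (-0.28, adjusted p = 0.800) did not pass. For GRF1 and GRF3 the call held when any of the 45 libraries behind the difference was left out. These p-values rest on the spread between libraries within a group. The difference between the systems was not tested with the lines as units.

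The lines are the units that were selected, so the means of the lines were also compared by an exact permutation test (two-sided). With 7 Hybrid Mimic and 2 small lines in the Ws/Ler system there are 36 arrangements, and the smallest possible p is 0.0278. In this exact test GRF2, GRF3 and GRF4 each gave p = 0.0556, and AN3 gave p = 0.361. With 4 and 2 lines in the Col/Ler system there are 15 arrangements, so that 0.05 cannot be reached. By exact permutation GRF1, GRF2 and GRF4 gave the smallest possible p of 0.0667, and AN3 and GRF3 gave p = 0.133 and p = 0.933.

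Using library totals alone for the scaling, without TMM factors, moved the median of all genes by -0.23 (Ws/Ler) and -0.26 (Col/Ler) in these comparisons. With this scaling, 4157 genes were called higher and 9360 lower in the Ws/Ler system, against 6143 and 6746 with TMM factors. For Col/Ler, 3693 were called higher and 10117 lower, against 6271 and 6457. GRF4 (1.66 and 2.09) and GRF2 (0.70 and 0.99) stayed higher with it in both systems. GRF1 was lower by this scaling in the Ws/Ler system too (-0.23, adjusted p = 0.0455), a change of the size of the shift in the median gene, and GRF3 in the Col/Ler system was at -0.25 (adjusted p = 0.0681).

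**Figure D2:**
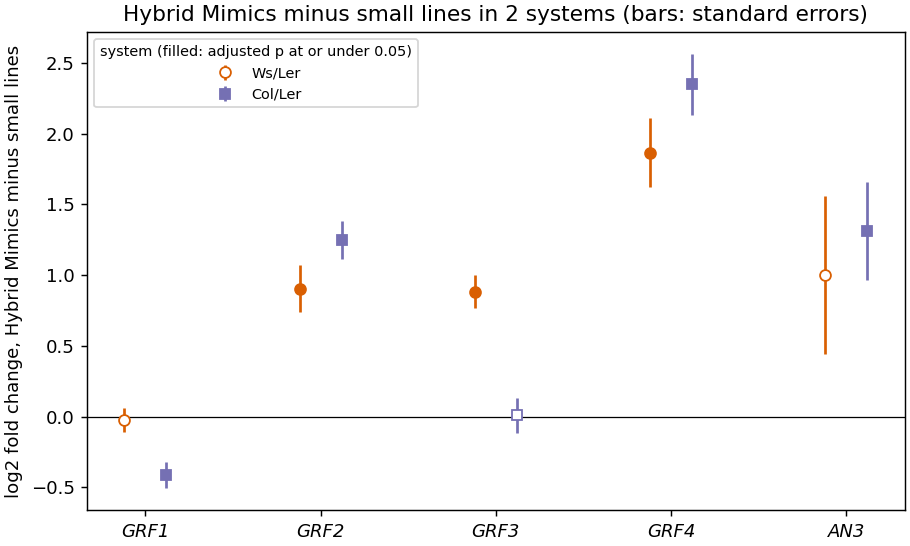
Log2 fold change of Hybrid Mimics over small lines for GRF1, GRF2, GRF3, GRF4 and AN3 in the Ws/Ler (circles) and Col/Ler (squares) systems, with standard errors as bars and filled symbols for an adjusted p at or under 0.05 with TMM factors. GRF4 reaches 1.86 and 2.35, and GRF3 differs between the systems, at 0.88 and 0.01.

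The makeup of the GRF transcripts differed with these levels. Counts per kilobase of the 8 GRF genes were summed in each library, and the share of each gene is given as a description. GRF1 took 42.3 ± 7.1% (SD, n = 21) of the sum in the Ws/Ler Hybrid Mimics and 61.1 ± 5.7% (n = 6) in the small lines. Its Col/Ler share was 39.6 ± 6.6% (n = 12) in the Hybrid Mimics and 58.4 ± 2.7% (n = 6) in the small lines. GRF4 took 17 ± 4.8% in the Ws/Ler Hybrid Mimics and 7.10 ± 2.8% in the small lines, and 14.0 ± 4.0% in the Col/Ler Hybrid Mimics and 3.10 ± 1.4% in the small lines. For each 100 counts of GRF1 there were 7.41 to 55.9 counts of GRF4 (median 33.2) in the Ws/Ler Hybrid Mimics and 4.98 to 13.7 (median 8.60) in the small lines. The Col/Ler values were 9.58 to 44.4 (median 28.2) in the Hybrid Mimics and 2.17 to 6.92 (median 3.53) in the small lines. This ratio lies within a library and does not depend on the scaling of the library.

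**Figure D3:**
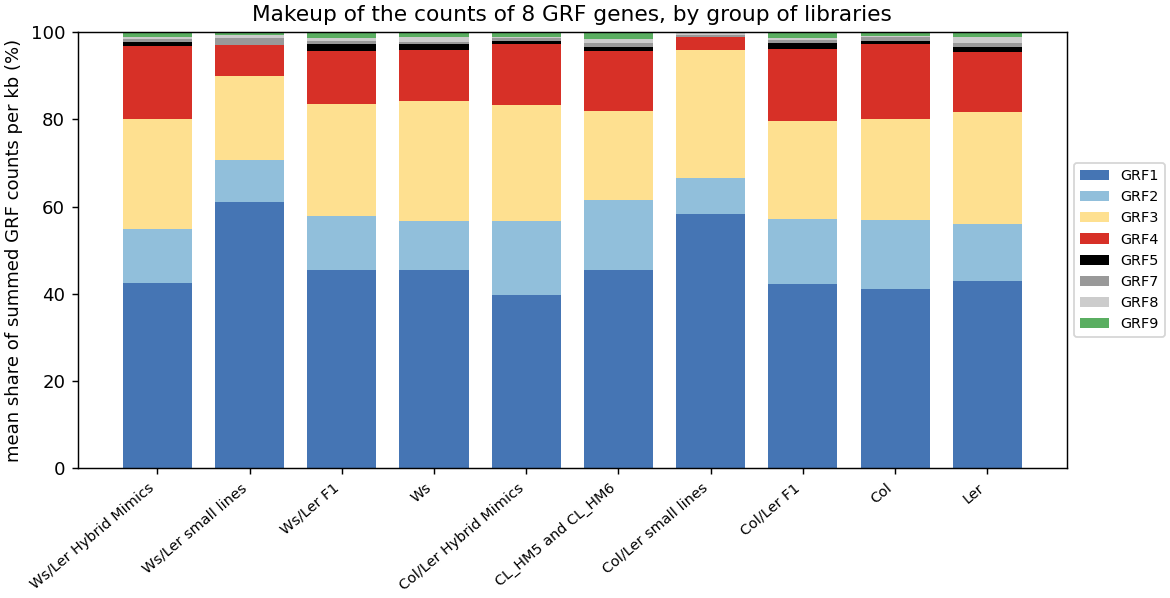
Mean share of each of the 8 GRF genes in the summed GRF counts per kilobase, in percent, for each group of libraries (stacked bars, each adding to 100%). The GRF4 band is 17% in the Ws/Ler Hybrid Mimics and 7.10% in the small lines, and 14.0% in the Col/Ler Hybrid Mimics and 3.10% in the small lines, while the GRF1 band is widest in the small lines.

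Other genes of the same pathway were read from lists of known genes. The coactivators GIF2 and GIF3, which act redundantly with AN3, were lower in the Hybrid Mimics, with log2 fold changes of -0.18 (adjusted p = 0.0139) and -0.36 (adjusted p = 0.00774) in the Ws/Ler system and of -0.24 (adjusted p = 0.00773) and -0.32 (adjusted p = 0.0199) in the Col/Ler system (edgeR). GRF6, the remaining member of the family, was at 0 in 42 of 72 libraries and had at most 18 counts. Of 9 SWI/SNF subunits, 4 were called higher and 2 lower in the Ws/Ler Hybrid Mimics, and 3 higher and 1 lower in the Col/Ler Hybrid Mimics, with medians of 0.01 and 0.05. That made 6 and 4 of 9 called, against 71.0% of all genes in each system. The actin-related proteins ARP4 (0.38 and 0.24) and ARP7 (0.23 and 0.27) were higher in both systems. The ATPase BRM (-0.25) and the core subunit SWI3A (-0.36) were the lower ones in the Ws/Ler system, and BSH (-0.20) in the Col/Ler system. All 15 mitotic genes tested in the Ws/Ler system and all 14 in the Col/Ler system were called higher in the Hybrid Mimics, with medians of 1.82 and 1.61, against 33.9% and 35.0% of all genes called higher. The mitotic cyclin CYCB1;2 had log2 fold changes of 2.01 and 1.75. The 10 DNA replication genes were called higher in both systems, with medians of 1.11 and 1.06. Of the leaf growth regulators, 6 of 14 tested were called higher and 4 lower in the Ws/Ler system, and 8 of 13 higher and 3 lower in the Col/Ler system, so that 10 of 14 and 11 of 13 were called against the 71.0% of all genes. AINTEGUMENTA (ANT), which prolongs cell proliferation in organs, was among the higher ones (0.71 and 1.20). DA1, which restricts the period of proliferation (-0.22 and -0.83), and ARF2, a repressor of organ growth (-0.68 and -0.19), were among the lower ones. These genes do not stand for the list. The summed list had a median of 13100.5 normalized counts in the Ws/Ler Hybrid Mimics and 15609.2 in the small lines. The Col/Ler medians were 12490.6 in the Hybrid Mimics and 12278.5 in the small lines.

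Markers of mature and of senescing leaves moved with the same contrast. The summed mature leaf markers ran from 575011 to 1217760 normalized counts in the Ws/Ler Hybrid Mimics, against 290497 to 359997 in the small lines. Col/Ler sums ran from 545569 to 1017230 in the Hybrid Mimics, against 260127 to 337876 in the small lines. Of the 4 senescence markers, SAG13, ORE1 and SGR1 were tested and all 3 were called lower in the Hybrid Mimics of both systems. Their list summed to a median of 711 in the Ws/Ler Hybrid Mimics and 2305 in the small lines, and to a median of 805 in the Col/Ler Hybrid Mimics and 7807 in the small lines. The ranges of these sums overlapped, at 331 to 26277 against 1874 to 5159 (Ws/Ler) and 441 to 5846 against 2625 to 11082 (Col/Ler). SAG12, the defining marker of senescence, was at 0 in 64 of 72 libraries. Summed shoot meristem markers had a median of 12.1 in the Ws/Ler Hybrid Mimics and 22.9 in the small lines, and of 17 in the Col/Ler Hybrid Mimics and 19.8 in the small lines. Of these markers STM and KNAT1 were tested in the Ws/Ler system and were not called, while KNAT1, the 1 tested in the Col/Ler system, was called lower (-1.60). Floral markers summed to 16.0 to 369 (median 61.1) in the Ws/Ler Hybrid Mimics and to 55.6 to 473 (median 154) in the small lines. The Col/Ler sums ran from 27.2 to 93.5 (median 54.5) in the Hybrid Mimics and from 58.7 to 97.8 (median 68.9) in the small lines. SEP1 and SEP3 were called lower in the Hybrid Mimics of both systems. They were 2 of 7 floral markers tested in the Ws/Ler and 2 of 2 in the Col/Ler system. AG was called higher in the Ws/Ler system (1.41). Its median over the 72 libraries was 11 counts. Its highest count, 51, was in WL_HM6 replicate 2, a Hybrid Mimic library rich in meristem markers. The markers were not tested without this library, so the call of AG is not read. LFY, which starts flower formation, was at 0 in 55 of 72 libraries. The part of these marker genes in the differences of the GRF genes and AN3 was not tested.

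Each line was also set against the mid-parent value (MPV), which was built from the counts of both parents and is shared by all lines and F1 hybrids of a system. In the MPV libraries GRF4 had 74.0, 54.3 and 67.9 normalized counts in the Ws/Ler system and 67.8, 89.5 and 54.0 in the Col/Ler system.

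GRF4 lay below the MPV libraries in each library of the 4 small lines, and it was called lower in 3 of them. GRF4 had 18.8, 19.9 and 14.4 normalized counts in wl_sml2 and fell by 1.87 ± 0.40 on the log2 scale (edgeR, adjusted p = 0.000489). It had 40.4, 46.6 and 45.9 in wl_sml1, with a log2 fold change of -0.55 (adjusted p = 0.264). Of the Col/Ler small lines, GRF4 had 10.1, 8.01 and 6.63 in cl_sml1, where it fell by 3.09 ± 0.33 (adjusted p = 1.21e-07). In cl_sml2 it had 14.6, 7.66 and 21.7 and fell by 2.29 ± 0.31 (adjusted p = 2.33e-06). GRF2 fell by 0.82 ± 0.27 in wl_sml2 (adjusted p = 0.0172), by 1.19 ± 0.21 in cl_sml1 (adjusted p = 6.35e-05) and by 1.18 ± 0.21 in cl_sml2 (adjusted p = 6.71e-05). The GRF2 call in wl_sml2 was lost without wl_sml2 replicate 3 (-0.72, adjusted p = 0.0762) or MPV replicate 3 (-0.69, adjusted p = 0.0790).

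GRF3 fell in the Ws/Ler small lines, by 1.10 ± 0.20 in wl_sml2 (edgeR, adjusted p = 5.66e-05) and by 0.52 ± 0.19 in wl_sml1 (adjusted p = 0.0365), and the second of these calls was lost when any of its libraries but MPV replicate 1 was left out (-0.57 to -0.41). In cl_sml1 and cl_sml2 the log2 fold changes of GRF3 were -0.04 and -0.16 and were not called. AN3 had 5.48, 11.0 and 18.9 normalized counts in cl_sml1 and 9.13, 14.6 and 10.9 in cl_sml2, against 21.6, 59.5 and 74.2 in the MPV. All 6 libraries were below the MPV, and AN3 fell by 2.14 ± 0.52 (adjusted p = 0.00152) and 2.16 ± 0.51 (adjusted p = 0.00127). In wl_sml2 AN3 had 12.8, 22.3 and 11.8, against 111, 52.8 and 72.5 in the MPV, and fell by 2.30 ± 0.92 (adjusted p = 0.045), a call that was lost when any of its libraries but MPV replicate 2 was left out (-2.66 to -1.97). GRF1 was not called in any of the 4 small lines, with log2 fold changes of 0.05 to 0.18. In all, 1 of 7 members was called in wl_sml1 (background 34.3%), 4 of 7 in wl_sml2 (41.2%), 3 of 5 in cl_sml1 (50.9%) and 3 of 5 in cl_sml2 (50.5%). Scaling by total counts moved the median gene by 0.13 and 0.20 in wl_sml1 and wl_sml2 and by 0.24 and 0.25 in cl_sml1 and cl_sml2. With it no member was called in wl_sml1 and 2 were called in wl_sml2, and the shares of all genes called in these lines with it are not given here.

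The Hybrid Mimic lines were not alike. No member was called against the MPV in WL_HM2 (background 23.4%), WL_HM5 (17.6%), WL_HM7 (15.8%), CL_HM1 (14.6%), CL_HM2 (18.0%) or CL_HM3 (25.9%). With an unadjusted p at or under 0.05 in edgeR, 1 member passed in WL_HM2, 2 in WL_HM5 and 1 in CL_HM3, and none in the other 3 lines. DESeq2 called 1 member in WL_HM5 and none in the other 5. The background shares are those of edgeR at the adjusted p. Shares for the unadjusted p and for DESeq2 are not given here, so these numbers describe only the members. In CL_HM4, by contrast, all 5 members tested fell (background 23.9%). GRF4 had 30.0, 30.1 and 16.4 normalized counts in CL_HM4 and fell by 1.47 ± 0.29 (edgeR, adjusted p = 0.000893). AN3 had 12.2, 18.7 and 9.21 and fell by 1.95 ± 0.51 (adjusted p = 0.00806), and GRF3 had 71.1, 89.3 and 82.9, against 128, 123 and 161 in the MPV, and fell by 0.77 ± 0.20 (adjusted p = 0.00882). Both genes lay below their 3 MPV libraries in each library of CL_HM4. GRF1 (-0.50, adjusted p = 0.0178) and GRF2 (-0.60, adjusted p = 0.0357) also fell in CL_HM4. The GRF1 call was lost without CL_HM4 replicate 1 (-0.46), CL_HM4 replicate 3 (-0.45) or MPV replicate 3 (-0.39). The GRF2 call was lost without CL_HM4 replicate 2 (-0.62), CL_HM4 replicate 3 (-0.53), MPV replicate 2 (-0.66) or MPV replicate 3 (-0.41).

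WL_HM6 stood at the other end, with 3 of 7 members called, all higher (background 25.7%). GRF4 had 59.9, 239 and 170 normalized counts in WL_HM6, with a log2 fold change of 1.25 ± 0.36 (edgeR, adjusted p = 0.0131). GRF3 (0.63 ± 0.19, adjusted p = 0.0173) and GRF1 (0.40 ± 0.15, adjusted p = 0.0436) were the others. All 3 calls were lost without WL_HM6 replicate 2, the library richest in meristem markers, at 0.81 (adjusted p = 0.155) for GRF4, 0.49 (adjusted p = 0.121) for GRF3 and 0.11 (adjusted p = 0.605) for GRF1. The call of GRF4 was also lost without MPV replicate 2 (1.16), that of GRF3 without MPV replicate 1 (0.46), and that of GRF1 without any of the 3 MPV replicates (0.39 to 0.45). GRF4 was called in WL_HM4 as well, at 114, 150.4 and 144 normalized counts (1.05 ± 0.36, adjusted p = 0.0255, the 1 member of 7 called, background 34.4%). All 3 libraries lay above the MPV, and the call was lost without WL_HM4 replicate 2 (0.98), WL_HM4 replicate 3 (1.01), MPV replicate 2 (0.96) or MPV replicate 3 (1.08). In WL_HM3 GRF3, with 121, 123 and 70.4 normalized counts, fell by 0.73 ± 0.20 (adjusted p = 0.0139, 1 of 7 members, background 11.9%), which did not hold without WL_HM3 replicate 3 (-0.52), MPV replicate 2 (-0.60) or MPV replicate 3 (-0.67). In WL_HM1 AN3, with 11.6, 14.1 and 7.45, fell by 2.83 ± 0.97 (adjusted p = 0.0358, 1 of 7 members, background 22.4%), which held only with all libraries or without MPV replicate 2 (range -3.06 to -2.50).

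CL_HM5 and CL_HM6 were tested in a fit of their own. GRF4 had 37.6, 14.3 and 33.8 normalized counts in CL_HM5 and fell by 1.32 ± 0.31 (edgeR, adjusted p = 0.00331). In CL_HM6 it had 65.9, 61.2 and 55.8, within the MPV libraries, with a log2 fold change of -0.21 (adjusted p = 0.631). GRF3 fell in both lines, by 0.69 ± 0.21 in CL_HM5 (adjusted p = 0.0247) and by 0.88 ± 0.22 in CL_HM6 (adjusted p = 0.00293). GRF1 had 169.7, 172 and 165 in CL_HM6, the lowest mean of the 24 groups, and fell by 0.62 ± 0.17 (adjusted p = 0.00586). In all, 2 of 5 members were called in CL_HM5 (background 18.3%) and 2 of 5 in CL_HM6 (31.3%). The GRF3 call in CL_HM5 was lost without CL_HM5 replicate 1 (-0.63), CL_HM5 replicate 2 (-0.53) or MPV replicate 3 (-0.56).

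**Figure D4:**
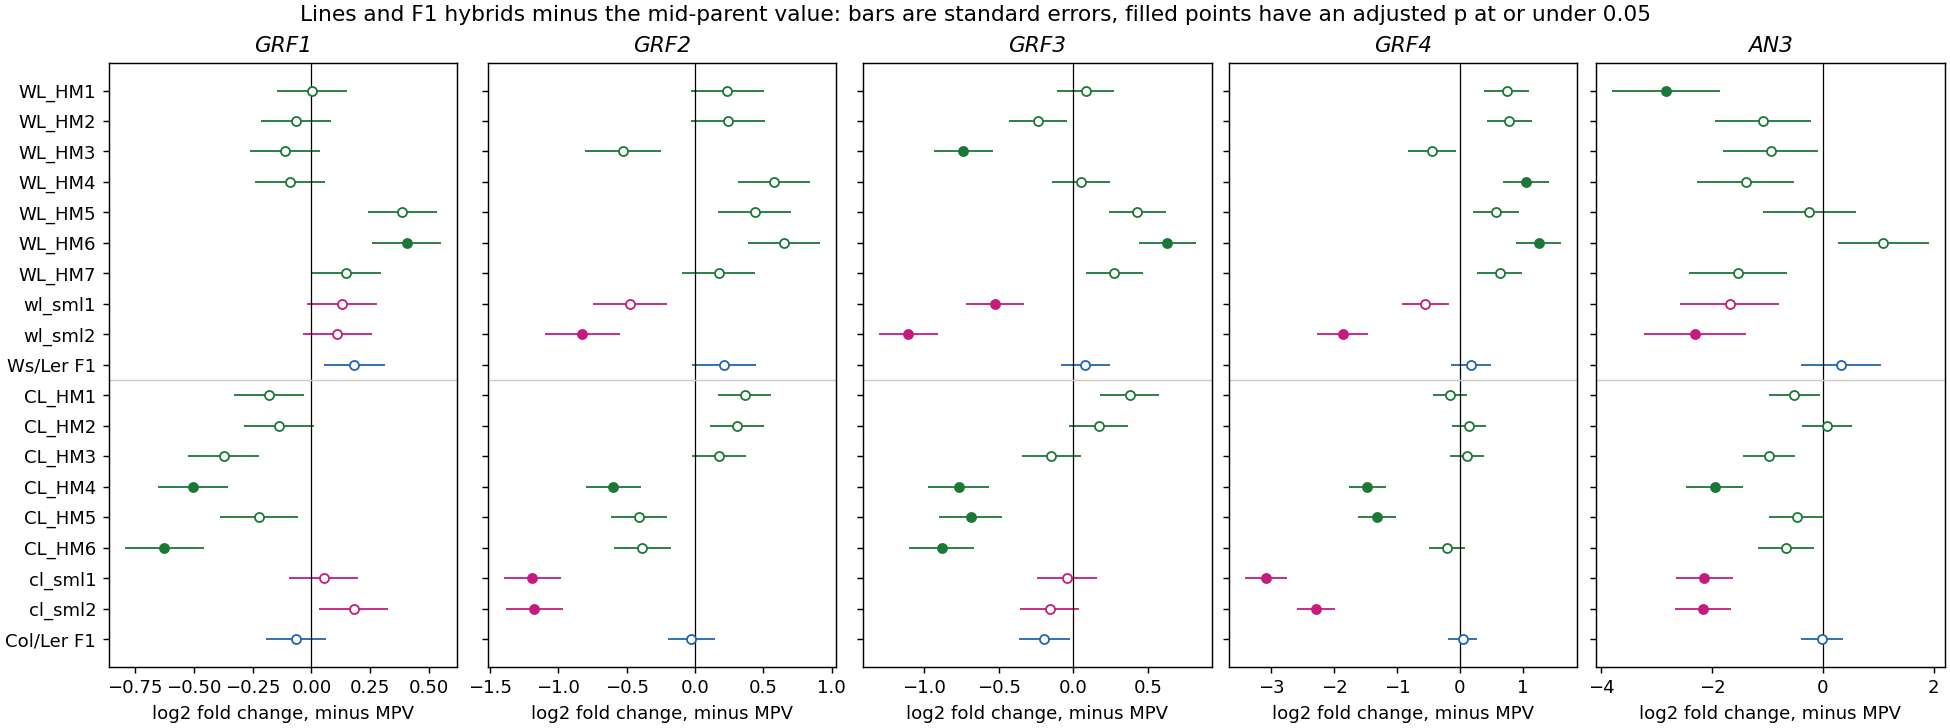
Log2 fold change over the MPV of GRF1, GRF2, GRF3, GRF4 and AN3 in each Hybrid Mimic line, small line and F1 hybrid (points, with standard errors as bars and filled points for an adjusted p at or under 0.05). GRF4 reaches -3.09 in cl_sml1 and 1.25 in WL_HM6, and the F1 hybrids lie close to 0 for all 5 genes.

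The F1 hybrids lay close to the MPV in the members of higher level. In the Ws/Ler F1 none of 7 members was called (background 0.281%), and in the Col/Ler F1 none of 5 (background 0.407%). None passed at an unadjusted p at or under 0.05 in edgeR, and DESeq2 called none, settings whose shares of all genes are not given here. In the Ws/Ler F1 the log2 fold changes over the MPV were 0.18 for GRF1, 0.21 for GRF2, 0.08 for GRF3, 0.17 for GRF4 and 0.33 for AN3, with adjusted p-values of at least 0.792. Without both libraries rich in meristem markers AN3 was at -0.29 (adjusted p = 0.873). In the Col/Ler F1 they were -0.07, -0.03, -0.19, 0.05 and -0.02 for the same genes, with adjusted p-values of at least 0.927. GRF4 ran from 48.3 to 106 (median 73.7) in the 6 Ws/Ler F1 libraries and from 67.9 to 81.7 (median 71.1) in the 6 Col/Ler F1 libraries, which overlapped with the MPV libraries in both systems.

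Hybrid Mimics were lower than the F1 hybrids for AN3. AN3 ran from 7.45 to 441 normalized counts (median 30.0) in the Ws/Ler Hybrid Mimics, against 28.6 to 268 (median 48.0) in the F1, and fell by 1.32 ± 0.46 on the log2 scale (edgeR, adjusted p = 0.0198). In the Col/Ler system it ran from 9.21 to 74.3 (median 27.3) in the Hybrid Mimics, against 27.4 to 80.0 (median 47.1) in the F1, and fell by 0.82 ± 0.29 (adjusted p = 0.0403). The groups overlapped in both systems. AN3 was the 1 member of 7 called in the Ws/Ler system (background 46.5%) and the 1 of 5 in the Col/Ler system (background 24.7%). Neither call was steady. In the Ws/Ler system it was lost without LerxWs F1 replicate 2 (-0.70, adjusted p = 0.230) or WsxLer F1 replicate 1 (-1.12, adjusted p = 0.0669), the 2 F1 libraries with the most AN3, and it held without both libraries rich in meristem markers (-1.05, adjusted p = 0.0234). Floral and shoot meristem markers were read for the same comparison. The paper reports that the Ws/Ler Hybrid Mimics began to flower later than the Ws/Ler F1. Of the floral markers, 5 of 7 tested were called lower in the Ws/Ler Hybrid Mimics than in the F1, with a median of -1.85 over the 7. These were AP1, AP3, PI, SEP1 and SEP2. Of the meristem markers KNAT1 (-1.86) was called and STM (-1.07) was not. Of all genes, 26.7% were called lower. Over the 72 libraries AP1, AP3, PI, SEP2 and KNAT1 had medians of 1, 2, 4, 2 and 6 counts. The highest counts of AP1 (66), PI (86) and SEP2 (81) were in LerxWs F1 replicate 2. Those of AP3 (65) and KNAT1 (190) were in WL_HM6 replicate 2. The markers were not tested without both libraries, so the calls of these genes are not read. Floral markers summed to 16.0 to 369 (median 61.1) in the Hybrid Mimics and to 43.8 to 446 (median 75.7) in the F1, and meristem markers to 3.18 to 371 (median 12.1) in the Hybrid Mimics and to 4.14 to 292 (median 14.2) in the F1. No floral or meristem marker tested was called between the Col/Ler Hybrid Mimics and F1. Their part in the difference of AN3 was not tested. In the Col/Ler system it was lost in 11 of the 18 fits without 1 library (-0.96 to -0.66 over all 18), with the highest adjusted p, 0.136, without LerxCol F1 replicate 2. It was lost without ColxLer F1 replicate 2, LerxCol F1 replicates 2 or 3, or any library of the Hybrid Mimics except CL_HM1 replicate 3, CL_HM2 replicate 3, CL_HM3 replicate 3 and CL_HM4 replicate 2. GRF4 had log2 fold changes of 0.48 (adjusted p = 0.0669) in the Ws/Ler and -0.39 (adjusted p = 0.0948) in the Col/Ler system. In the Ws/Ler system GRF4 passed without LerxWs F1 replicate 2 (0.62), WL_HM1 replicate 1 (0.52), WL_HM3 replicate 3 (0.54) or WL_HM6 replicate 1 (0.54). GRF1 in the Col/Ler system (-0.23, adjusted p = 0.0675) passed without CL_HM1 replicate 1 (-0.28), CL_HM4 replicate 2 (-0.27), ColxLer F1 replicate 1 (-0.29) or ColxLer F1 replicate 3 (-0.27).

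Among the parents no member was called between Ws and Ler (background 20.7%), Col and Ler (14.4%) or Ws and Col (24.1%). GRF1 came nearest, with 442, 408 and 321 normalized counts in Ws, against 193, 215 and 358 in Ler. The groups overlapped through Ler replicate 3, and the log2 fold change was 0.60 ± 0.22 (edgeR, adjusted p = 0.0804). Without Ler replicate 3 it was 0.92 (adjusted p = 0.00333) for GRF1 and 0.95 (adjusted p = 0.0344) for GRF3. With an unadjusted p at or under 0.05, 1 member passed in Ws against Ler, none in Col against Ler and 1 in Ws against Col, and DESeq2 called none in the 3 comparisons. The shares of all genes for the unadjusted p and for DESeq2 are not given here, so these numbers describe only the members.

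Over the 24 groups, WL_HM6 had the highest mean of all 9 members. Without the 2 libraries rich in meristem markers it kept this place for GRF3 (244) and GRF8 (9.51). It then came second for GRF4 (115, against 136 in WL_HM4), sixth for GRF1 (344, against 418 in WL_HM5), sixth for GRF2 (102, against 127 in WL_HM4) and 15th for AN3 (30.6, against 101 in Ws). The lowest mean of all libraries was in cl_sml1 for GRF2, GRF4 and GRF9, in CL_HM6 for GRF1 and GRF3 and in WL_HM1 for AN3, while GRF5 was at 0 in each library of both CL_HM4 and cl_sml2. Group means of GRF4 ran from 8.23 ± 1.7 in cl_sml1 to 156 ± 90.4 in WL_HM6 (SD, n = 3 each). Those of GRF2 ran from 38.9 to 133, those of GRF3 from 74.5 to 269, those of GRF1 from 169 to 423 and those of AN3 from 11.0 to 168. Neighbours in a sorted order lie close by construction, so their overlap is given only as a description. Of the 23 pairs of neighbours, 23 overlapped for GRF1, GRF2, GRF5, GRF8, GRF9 and AN3, and 22 for GRF3, GRF4 and GRF7.

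Over the 24 group means on the log2 scale, Pearson's r among the 7 members of the Ws/Ler tests was highest between GRF2 and GRF4, at 0.93, and lowest for the pairs of GRF1, at 0.15 to 0.28 with all but GRF3 (0.69). It was 0.85 between GRF5 and AN3, 0.83 between GRF5 and GRF9 and 0.81 between GRF9 and AN3. The members did not part into separate sets, since r was also 0.78 between GRF4 and GRF9, 0.71 between GRF2 and GRF9, 0.67 between GRF2 and GRF3, 0.67 between GRF4 and GRF5 and 0.60 between GRF3 and GRF4. Without the 2 libraries rich in meristem markers r was 0.92 between GRF2 and GRF4, 0.67 between GRF1 and GRF3, 0.79 between GRF5 and AN3, 0.79 between GRF5 and GRF9 and 0.76 between GRF9 and AN3. These values describe group means, several of which share parents, and for GRF5 and GRF9 they rest on low counts. The 5 genes whose group means were most like those of AN3 were CYP706A3 (0.92), SPL8 (0.91), AT5G33370 (0.86), GRF5 (0.85) and AT3G17640 (0.84). Without the same 2 libraries their r with AN3 was 0.83, 0.85, 0.81, 0.79 and 0.86, and AT5G33370 and GRF5 ranked seventh and 12th of the genes compared. For GRF1 they were NEK1 (0.89), AT4G02485 (0.87), AT1G71980 (0.86), DEL2 (0.85) and AT5G02650 (0.85).

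AN3 and the GRF genes of low level were highest in the libraries with the most meristem markers. WL_HM6 replicate 2 had 441 normalized counts of AN3, 81.2 of GRF5, 44.9 of GRF9, 27.6 of GRF8 and 20.7 of GRF7, and it ranked first of 72 libraries in each. It also had the most GRF4 (239) and GRF1 (580.4). LerxWs F1 replicate 2 had 268 of AN3, 48.6 of GRF5, 26.1 of GRF9 and 19.6 of GRF7, and it ranked second in these 4 genes. In these libraries STM, which keeps the shoot meristem undifferentiated, had 179.7 and 109 normalized counts, and floral markers summed to 369 and 446. STM and KNAT1 (164 and 157) made up most of the meristem marker sums. CLV3 was at 0 in both libraries, and WUS had 5.18 and 0.934. The mitotic cyclin CYCB1;2 had 457 and 233. The order did not extend evenly below them. The library with the next highest sum of meristem markers, WL_HM4 replicate 1 (98.8), had 30.0 of AN3 and ranked 38th. Ws replicate 1, with a meristem marker sum of 49.0, had 210.3 of AN3. The part of meristem RNA in the levels of these genes was not tested.

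**Figure D5:**
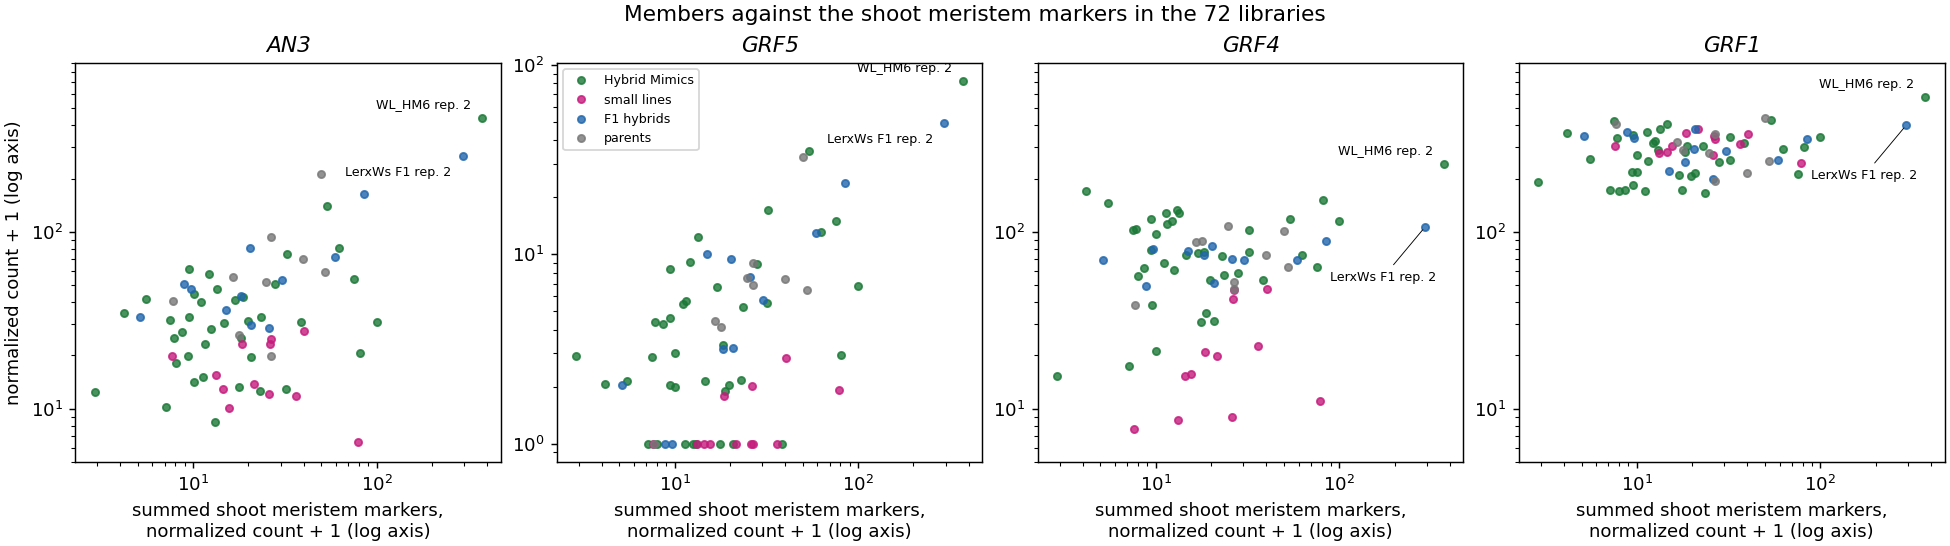
Normalized counts plus 1 of AN3, GRF5, GRF4 and GRF1 against the summed shoot meristem markers plus 1, on log axes, with a point for each of the 72 libraries coloured by the kind of group. The 2 libraries named on the plot have meristem marker sums of 371 and 292 and AN3 counts of 441 and 268. GRF1 runs from 165 to 580 normalized counts over the 72 libraries.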

How the data were processed

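The authors sequenced mRNA with paired-end reads and aligned them with STAR 2.5.3a to TAIR10 with the Araport11 annotation. The deposited values are raw counts per gene, without normalization; every column matched a library. The quasi-likelihood test of edgeR 4.0.16 (with limma 3.58.1, in R 4.3.3) was used with TMM factors on every gene that reached 50 counts in any library of a fit. Benjamini-Hochberg adjustment ran over all genes tested in that fit, and 0.05 was the limit for a call. The MPV was made by scaling parental libraries of the same number to a common size, adding and rounding them, which gave 3 libraries per system. The Ws/Ler fit held 36 libraries, the Col/Ler fit 27, or 33 with CL_HM5 and CL_HM6, and that of the parents 9. Other choices were DESeq2 1.42.0, total counts, other filters, an MPV on the log scale or from shifted pairs, fits of only the groups compared, a replicate block and leaving out each library. The script was tested on simulated counts. Named genes were the members, lists of known pathway and marker genes, and the 5 genes most like AN3 and GRF1 over the group means. The members and lists were chosen with earlier results of these data known. Of the list entries, 6 were not used here.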

Additional observations from a re-analysis of the deposited data

Results flagged for a closer look

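Library LerxWs F1 replicate 2 had the highest GRF7 of the 6 Ws/Ler F1 libraries, at 19.6 normalized counts, far from the others. Library ColxLer F1 replicate 3 had the highest GRF8 of the 6 Col/Ler F1 libraries, at 7.02 normalized counts. Chance sets about 1 in 20 groups apart in this way, and many groups were examined. The log2 fold change of Hybrid Mimics over small lines differed between the systems for GRF3 (Ws/Ler minus Col/Ler, 0.90; edgeR, adjusted p = 0.000221) and for GRF1 (0.42; edgeR, adjusted p = 0.0216).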

How the results depend on the processing

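No called value changed sign in any alternative. With 1 library left out, 389 called fold changes kept their side of the threshold and 55 lost it, and under the other alternatives 244 kept it and 23 lost it. The numbers of members called moved as follows, with the cause not tested except where fewer genes or libraries entered. The share of all genes called under each setting is not given here, so these numbers describe only the members. With DESeq2, 6 members, GRF5 and GRF9 among them, were called between Ws/Ler Hybrid Mimics and small lines. DESeq2 also called 2 between Ws/Ler Hybrid Mimics and F1 and 1 in WL_HM5. With at least 50 counts in every library, which left 2 members to test, 1 was called between Hybrid Mimics and small lines in each system, 0 between Hybrid Mimics and F1 in each system, 0 in WL_HM1, WL_HM4, cl_sml1 and cl_sml2, 1 in wl_sml2 and CL_HM5 and 2 in CL_HM4. Without a filter, 2 were called between Col/Ler Hybrid Mimics and F1 and 5 each in cl_sml1 and cl_sml2. With an unadjusted p, 2 were called between Ws/Ler Hybrid Mimics and F1, 3 between Col/Ler Hybrid Mimics and F1, 2 each in WL_HM1, WL_HM4 and WL_HM5, 1 each in WL_HM2 and CL_HM3, and 1 each in Ws against Ler and Ws against Col. With only the groups compared in the fit, 3 were called in WL_HM4, wl_sml1 and CL_HM4, 1 in WL_HM2, WL_HM5 and Ws against Col, and 0 in WL_HM3, WL_HM6 and CL_HM5. With total counts, 0 were called in wl_sml1, 2 in wl_sml2, 2 between Col/Ler Hybrid Mimics and F1 and 1 in Ws against Ler. With the MPV on the log scale, 2 were called in WL_HM4. Without the 2 libraries rich in meristem markers, an alternative chosen after seeing the data, 2 were called between Ws/Ler Hybrid Mimics and F1 and 0 in WL_HM6, and Pearson's r between GRF1 and GRF5 over the group means was -0.0394, against 0.147.

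Leaving out each library in turn gave 3 to 4 members called between Ws/Ler Hybrid Mimics and small lines, 4 in every fit between Col/Ler Hybrid Mimics and small lines, 0 to 2 between Hybrid Mimics and F1 in each system, 2 in every fit for the difference between the systems, 0 to 1 in WL_HM1, WL_HM3, WL_HM4, wl_sml1 and CL_HM3, 0 to 4 in WL_HM6, 2 to 4 in wl_sml2, 3 to 5 in CL_HM4, 1 to 3 in CL_HM5, 2 in CL_HM6, 3 in cl_sml1 and cl_sml2, 0 to 2 in Ws against Ler and 0 elsewhere. The call of AN3 in CL_HM3 came without MPV replicate 1 (-1.33), and that of GRF2 in WL_HM6 without its replicate 1 (0.93). Those of GRF2 and GRF1 in CL_HM5 came without its replicates 1 (-0.67) and 3 (-0.50). GRF9 was called between Ws/Ler Hybrid Mimics and small lines without wl_sml2 replicate 1. GRF5 was called between Ws/Ler Hybrid Mimics and F1 without WL_HM6 replicate 2. GRF5 and GRF9 entered these fits only through the libraries rich in meristem markers, so these 2 calls are not read.

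Libraries of different groups with the same number shared only that number: in 18 of 276 pairs of groups every same-number correlation was over 0.1, and the median was 0.0104. With the replicate block, 1 member was called in WL_HM5 and no other count moved beyond 1.5 times. Counts limit what can be seen of GRF5, GRF7, GRF8 and GRF9, whose medians were 2, 3, 2 and 5 counts.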
